A study of Mus musculus with 9 samples.

Results

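The 6 arrays compared here hold RNA from mouse liver, 3 from animals given the thyroid hormone triiodothyronine (T3) for 3 days and 3 from euthyroid controls. They were chosen by their titles and make up 6 of the 9 arrays of the series. All animals were male C57BL/6 mice, aged 8 weeks. The 3 arrays left out carry FoxO1 knockdown on top of T3. The labels call the treated mice hyperthyroid and give no dose, no route and no hormone level, and nothing in them ties an array to 1 mouse of its own. The p-values therefore measure only how far these samples spread, which may be technical. Of 45281 probes 17185 were detected (detection p under 0.05) on at least 3 of the 6 arrays and were tested, and 14624 of these pair with 1 gene symbol. They represent 9776 genes, each read here from its brightest tested probe. Values are normalised log2 signals, given in the order of the replicate numbers, and differences are T3 minus euthyroid on the log2 scale with the standard error (SE) of a limma fit.

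Thyroid hormone acts in the nucleus through thyroid hormone receptors, of which the beta form is the main one in hepatocytes. The receptors sit on DNA with retinoid X receptors, hold many target genes down in the absence of hormone and raise their transcription when T3 binds. In liver the hormone is known to raise deiodination, lipid synthesis and lipid burning together, cholesterol turnover and mitochondrial respiration, and to change the growth hormone signal on which the male and female patterns of liver gene expression depend.

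The arrays separated by treatment along the first principal component, which carried 58.1% of the variance. Pearson correlations were 0.985 to 0.988 among the T3 arrays, 0.99 to 0.992 among the euthyroid arrays and 0.969 to 0.976 between the groups. T3 replicate 2 lay apart from the other T3 arrays on the second component (14.3% of the variance) and had the lowest array weight, 0.524. Between 16481 and 17755 probes were detected on each array, and the number of arrays limits the precision. Of 11 tested hepatocyte markers 2 were called higher, Cps1 (0.57) and Hnf4a (0.50), and 1 lower, Hpd (-0.77); the higher calls numbered 0 without euthyroid replicate 2 or 3, and 1 with T3 replicate 2 or 3 or euthyroid replicate 1 left out, and 0 with median scaling. Alb, the serum albumin gene, differed by -0.01, and the summed linear signal of the markers was 257700 to 262900 on the T3 arrays, against 248300 to 261600 on the euthyroid arrays. A linear sum weighs the brightest markers most, and quantile normalization gives every array the same set of values. A near-equal sum therefore says little of the share of hepatocytes.

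With T3 the signal of 1888 of 9776 genes differed at an adjusted p under 0.05, which is 19.3% of all genes tested. Of these 800 (8.18%) were higher and 1088 (11.1%) lower with T3. Counts of list members given without a share stand against these shares of all genes. A difference of at least 1.5-fold was called for 500 genes (5.11%) on the higher side and 608 (6.22%) on the lower side, one of at least 2-fold for 144 and 134 genes, and one of at least 4-fold for 19 and 10 genes. For 42.3% of all genes, called or not, the T3 arrays did not overlap the euthyroid ones. Counted over probes, 1749 (10.2%) were higher and 1875 (10.9%) lower with T3. The median difference over all genes was -0.05, with a median SE of 0.137. The count of 1888 fell whichever array was left out, to between 753 (euthyroid replicate 1) and 1505 (T3 replicate 2). Dropping replicate 2 or 3 of the euthyroid group gave 939 and 920, and dropping T3 replicate 3 gave 1101. It was 863 when arrays were scaled by their median in place of quantile normalization. All 1888 genes kept the sign of their difference with any 1 array left out and with median scaling. Under each of 16 alternative settings 424 genes were called in the same direction, 174 higher and 250 lower. Where a called gene is given below with its SE and with no remark on its call, no alternative that measured it ended the call. Where a call is said to be lost, alternatives other than those named may have ended it too.

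**Figure D1:**
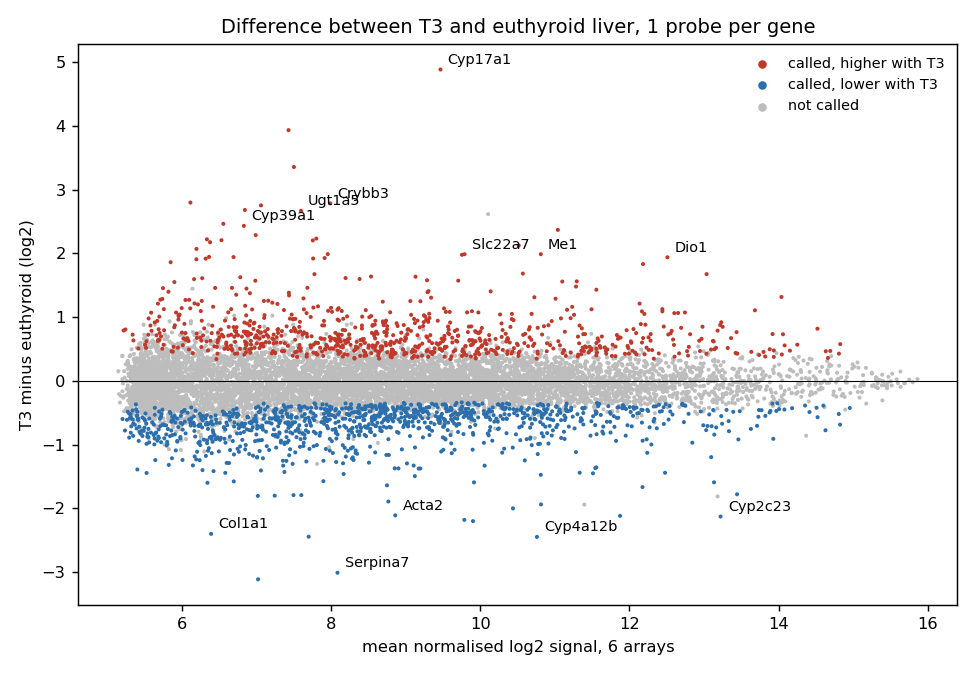
Difference between T3 and euthyroid liver (log2, vertical axis) against the mean normalised log2 signal of the 6 arrays (horizontal axis), 1 point per gene. Red points are the 800 genes called higher and blue points the 1088 called lower; Cyp17a1 lies highest, and Serpina7, Cyp4a12b and Cyp2c23 are among the lowest.

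Dio1, the deiodinase that makes T3 from thyroxine and itself a standard target of the hormone in liver, was 3.84-fold higher with T3. Its signal was 13.36, 13.58 and 13.50 on the T3 arrays, against 11.60, 11.80 and 11.22 on the euthyroid arrays. Every T3 array lay above every euthyroid array, the difference was 1.94 ± 0.16 (SE, adjusted p = 0.0014), and a second probe gave 2.52. The gene lies at GRCm38.p6 chromosome 4, 107291465 to 107307168. Serpina7 encodes thyroxine-binding globulin, the carrier of thyroid hormone in blood, and it was the gene with the deepest fall among those detected on all 6 arrays, 8.05-fold. It read 6.76, 6.72 and 6.27 on the T3 arrays, against 9.34, 9.72 and 9.72 on the euthyroid arrays, again with no overlap (-3.01 ± 0.18, SE, adjusted p = 0.000621), and its other probe gave -1.57. The other carriers did not pass the test: Ttr, the transthyretin gene, differed by 0.13, and Alb stood as given above.

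Of 14 tested genes of thyroid hormone transport, deiodination and receptors 4 rose and 1 fell, with a median of -0.04 against -0.05 over all genes. Beside Dio1 and Serpina7, the call went to Ugt1a1, a glucuronosyltransferase that acts on thyroxine and bilirubin, at 1.08 ± 0.13 (SE, adjusted p = 0.00383), and to Slco1a4, an organic anion transporter that carries thyroid hormone. Slco1a4 read 7.85, 8.45 and 7.68 on the T3 arrays, against 7.15, 6.99 and 6.72 on the euthyroid arrays, and its difference of 1.04 ± 0.22 (SE, adjusted p = 0.0166) was lost without euthyroid replicate 2 or 3 (adjusted p = 0.0508 to 0.0557). With either of these left out the count of rises was 2. The probes of the receptors Thra and Thrb were not detected on enough arrays to be tested. Of the nuclear partners Rxra differed by -0.08 and Rxrb by -0.34, neither called.

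Of 19 tested genes taken as classic responders to the hormone 5 rose and 0 fell, and their median was 0.36. Me1, the malic enzyme, a source of NADPH for lipogenesis, read 11.54, 12.03 and 11.85 on the T3 arrays, against 9.72, 10.18 and 9.55 on the euthyroid arrays. The T3 arrays all lay above the euthyroid ones, a rise of 1.99 ± 0.20 (SE, adjusted p = 0.00231). Pck1, the phosphoenolpyruvate carboxykinase of gluconeogenesis, rose by 1.57 ± 0.24 (SE, adjusted p = 0.0066), and its second probe gave 1.52. Thrsp, a nuclear protein that raises lipogenesis, was called at 0.63 ± 0.16 (SE, adjusted p = 0.0319) on its brighter probe, but the other probe gave -0.63, and the call did not hold without T3 replicate 2 or 3 or euthyroid replicate 1 or 2 (adjusted p = 0.0742 to 0.103) and with median scaling. The count of rises was 3 without T3 replicate 3 or euthyroid replicate 1. Several textbook targets did not pass: Klf9, a zinc finger factor, differed by 0.15 (adjusted p = 0.407), and Hr, the hairless corepressor, by 0.25 (adjusted p = 0.415). Fgf21, a hormone secreted by the liver, read 11.11, 11.60 and 11.54 on the T3 arrays, against 6.11, 10.79 and 9.49 on the euthyroid arrays. Its T3 values lay close together and its euthyroid values spread widely, so that a mean difference of 2.62 did not pass (adjusted p = 0.107).

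Thyroid hormone receptors bind DNA at copies of a 6-base half-site whose consensus is AGGTCA, and 2 copies in the same direction with 4 bases between them make a common response element. The half-site was searched on both strands in the 250 bases before each RefSeq start site (GRCm38.p6). It stood in 14% of all 32841 windows, in 14.6% of the 644 called-higher genes with a window, in 12.6% of 862 called-lower genes and in 13.6% of 6432 genes not called. The element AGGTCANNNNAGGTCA stood in 5 windows (0.0152%). The 3 windows are shown because their genes rose and stand for deiodination, bile salt export and bile acid synthesis; they were picked after the values were seen. Half-sites on either strand (AGGTCA or TGACCT) are in capitals: 2 in Akr1d1, 1 in Abcb11 and 0 in Dio1. A match is a description of the letters, and a window without one says nothing of receptor binding elsewhere.
Dio1 chr4:107307169-107307418 (- strand): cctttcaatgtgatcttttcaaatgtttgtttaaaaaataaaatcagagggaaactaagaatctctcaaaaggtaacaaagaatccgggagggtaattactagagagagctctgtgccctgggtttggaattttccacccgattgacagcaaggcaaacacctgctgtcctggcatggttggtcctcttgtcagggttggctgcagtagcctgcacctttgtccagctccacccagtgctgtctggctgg
Abcb11 chr2:69342617-69342866 (- strand): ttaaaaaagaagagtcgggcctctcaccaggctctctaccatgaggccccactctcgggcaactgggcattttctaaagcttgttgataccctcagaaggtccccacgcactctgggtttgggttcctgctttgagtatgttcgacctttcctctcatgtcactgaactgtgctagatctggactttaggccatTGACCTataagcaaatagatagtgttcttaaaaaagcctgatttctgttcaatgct
Akr1d1 chr6:37529923-37530172 (+ strand): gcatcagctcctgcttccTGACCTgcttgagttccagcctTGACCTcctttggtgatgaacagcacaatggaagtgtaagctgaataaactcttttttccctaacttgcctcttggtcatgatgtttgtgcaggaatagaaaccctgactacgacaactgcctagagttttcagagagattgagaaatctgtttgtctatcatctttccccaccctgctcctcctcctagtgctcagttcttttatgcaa

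**Figure D2:**
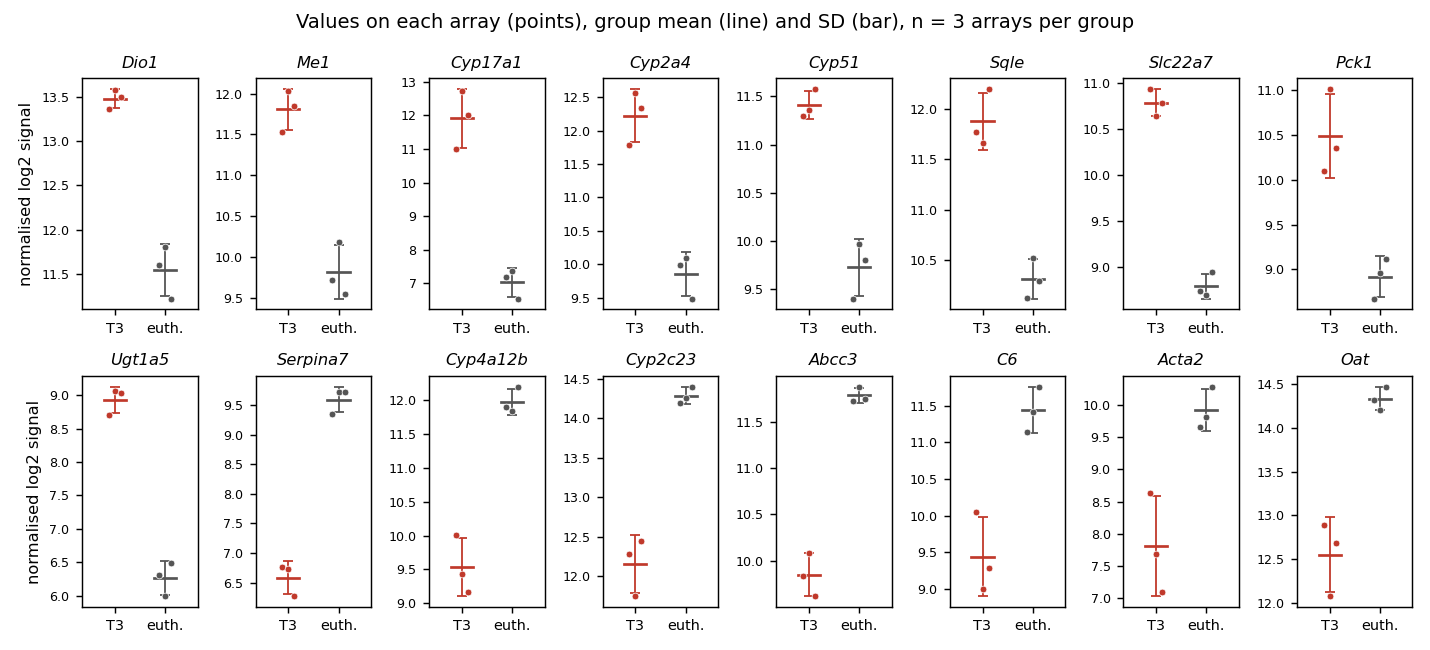
Normalised log2 signal of 16 named genes on each array (points), with the group mean (line) and SD (bar), T3 on the left and euthyroid (euth.) on the right of each panel, n = 3 arrays per group; vertical axes do not start at 0. In each panel the 3 T3 arrays lie on one side of the 3 euthyroid arrays.

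Sex-biased liver genes follow the pattern of growth hormone secretion, and all mice here were male. Of 10 tested female-biased genes 7 rose and 1 fell, against 8.18% and 11.1% of all genes, with a median of 1.95. The count of rises was 5 without euthyroid replicate 3, and 5 with detection required on all 6 arrays. The fall was lost with detection required on all 6 arrays, and without T3 replicate 1 or 3 or euthyroid replicate 1 or 2. Cyp17a1, a steroid 17-hydroxylase and lyase, showed the greatest rise of all genes tested, 29.6-fold (GRCm38.p6 chromosome 19, 46667165 to 46673000). It read 10.99, 12.73 and 12.02 on the T3 arrays, against 7.17, 7.36 and 6.54 on the euthyroid arrays. The difference was 4.89 ± 0.42 (SE, adjusted p = 0.00152), and the lowest T3 array lay far above the highest euthyroid one. Cyp2a4, a testosterone hydroxylase, read 11.78, 12.56 and 12.34 on the T3 arrays, against 9.98, 10.10 and 9.49 on the euthyroid arrays, without overlap (2.37 ± 0.24, SE, adjusted p = 0.00231). Acot3, a peroxisomal acyl-CoA thioesterase, rose by 1.99 ± 0.33 (SE, adjusted p = 0.00853), and Abcd2, a peroxisomal importer of very long chain fatty acids, by 1.63 ± 0.22 (SE, adjusted p = 0.00506). Cyp2b9 was called at 2.13 ± 0.55 (SE, adjusted p = 0.0331); the call was lost without T3 replicate 2 or 3 or euthyroid replicate 2 or 3 (adjusted p = 0.0642 to 0.096), and near-identical Cyp2b genes make its probe uncertain. A gene could pass the filter through detection in the T3 group alone, so the counts speak only of the 10 that passed, of 17 on the array. Of these 10, 6 were detected on all 6 arrays.

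Of 18 tested male-biased genes 8 fell and 1 rose, 50% against 19.3% of all genes, with a median of -0.82. The count of falls was 5 without euthyroid replicate 3. Cyp4a12b, a fatty acid hydroxylase, read 10.01, 9.43 and 9.16 on the T3 arrays, against 11.90, 11.85 and 12.20 on the euthyroid arrays. Its difference of -2.45 ± 0.22 (SE, adjusted p = 0.00178) was shared in sign by the close copy Cyp4a12a (-1.67, adjusted p = 0.0152; lost without euthyroid replicate 3 (adjusted p = 0.0523)), and the probes of these copies cannot be taken as separate. Elovl3, an elongase of very long chain fatty acids, changed by -1.24 ± 0.19 (SE, adjusted p = 0.00692). C6, a component of the membrane attack complex of complement, read 10.04, 9.00 and 9.28 on the T3 arrays, against 11.14, 11.42 and 11.76 on the euthyroid arrays. The groups did not overlap for it (4-fold lower, adjusted p = 0.00536; other probe -1.79). Against the direction of the list, Mup20, the major urinary protein known as darcin, read 14.69, 14.82 and 14.58 on the T3 arrays, against 13.44, 13.38 and 13.32 on the euthyroid arrays, a rise of 1.32 ± 0.11 (SE, adjusted p = 0.00145). Hsd3b5, a steroid reductase of male liver, was lowest on T3 replicate 2, with 13.28, 10.43 and 13.12 on the T3 arrays, against 13.97, 14.17 and 14.13 on the euthyroid arrays, and was not called (-1.81, adjusted p = 0.0971).

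Among 14 tested genes of the growth hormone, STAT5 and IGF1 axis 3 rose and 4 fell, 50% against 19.3% of all genes. Stat5a, which carries the growth hormone signal to the nucleus, read 8.30, 8.35 and 8.89 on the T3 arrays, against 7.49, 7.51 and 7.23 on the euthyroid arrays, a rise of 1.10 ± 0.18 (SE, adjusted p = 0.00801) with 0.59 on its other probe. Igfbp1, an inhibitory binding protein of insulin-like growth factors, read 6.89, 7.39 and 8.72 on the T3 arrays, against 6.15, 5.44 and 5.57 on the euthyroid arrays; the call (1.94 ± 0.44, SE, adjusted p = 0.0219) was lost without euthyroid replicate 2 or 3 (adjusted p = 0.0673 to 0.0712). Socs2, a feedback inhibitor that growth hormone itself induces, read 11.27, 10.25 and 10.65 on the T3 arrays, against 11.70, 12.05 and 11.78 on the euthyroid arrays. Its difference of -1.12 ± 0.25 (SE, adjusted p = 0.0205) was lost without T3 replicate 3 or euthyroid replicate 1, 2 or 3 (adjusted p = 0.0548 to 0.0686). The Socs2 call was also lost with all 9 arrays in 1 fit (adjusted p = 0.0547). The growth hormone receptor gene Ghr had 3 tested probes that disagreed, -0.47 on the brightest and -2.02 and 0.18 on the others, and the call of the brightest was lost without T3 replicate 3 or euthyroid replicate 1, 2 or 3 (adjusted p = 0.0585 to 0.0627). Igf1, the growth factor that the axis drives, was not called (0.20, adjusted p = 0.38). The count of falls was 0 without T3 replicate 3 or euthyroid replicate 1, 2 or 3, and 2 with T3 replicate 2 left out, and that of rises was 1 without euthyroid replicate 2 or 3.

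The cytochromes P450 that oxidize drugs and steroids split in both directions: of 25 tested 8 rose and 7 fell, 60% against 19.3% of all genes. The median was -0.05. The count of rises was 3 without euthyroid replicate 2 or 3, and 5 with euthyroid replicate 1 left out. Within the Cyp2c family Cyp2c23, an epoxygenase of arachidonic acid, read 12.28, 11.75 and 12.45 on the T3 arrays, against 14.19, 14.26 and 14.40 on the euthyroid arrays. It fell 4.37-fold (-2.13 ± 0.19, SE, adjusted p = 0.00156), whereas Cyp2c39 read 7.20, 8.07 and 7.65 on the T3 arrays, against 5.69, 5.53 and 5.07 on the euthyroid arrays and rose (2.21 ± 0.24, SE, adjusted p = 0.00339). Cyp2c38, a close copy of Cyp2c39, rose by 2.07 ± 0.21 (SE, adjusted p = 0.00242). Both were dim in euthyroid liver, Cyp2c38 being detected on 1 and Cyp2c39 on 2 of the 3 euthyroid arrays, and their probes may read each other's transcript. Cyp1a2, which oxidizes caffeine and aromatic amines, read 12.71, 11.90 and 12.41 on the T3 arrays, against 13.97, 13.92 and 13.90 on the euthyroid arrays, a difference of -1.59 ± 0.20 (SE, adjusted p = 0.00425). Cyp39a1, which hydroxylates an oxysterol on the way to bile acids, is not 1 of the 25. It was called higher (2.43 ± 0.13, SE, adjusted p = 0.000621), with 1.30 on its other probe.

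In the Cyp4 family, whose members hydroxylate fatty acids at the end of the chain, 5 of 11 tested genes fell and 0 rose (median -0.41), and 3 fell without euthyroid replicate 3 or with median scaling. Besides Cyp4a12a and Cyp4a12b, Cyp4v3 differed by -0.73 ± 0.11 (SE, adjusted p = 0.00703), and Cyp4f15 by -0.61 ± 0.12 (SE, adjusted p = 0.0125), a call lost with median scaling. Cyp4a14, a target of the fatty acid receptor PPAR alpha, was not called (-0.03).

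Of 32 tested conjugation enzymes 8 rose and 4 fell (median 0.13). The theta class glutathione transferases rose: Gstt1 read 14.01, 13.68 and 13.93 on the T3 arrays, against 12.34, 12.13 and 12.12 on the euthyroid arrays, a difference of 1.68 ± 0.13 (SE, adjusted p = 0.00114). Gstt3, a close relative whose probe could share signal with it, gave 1.83 ± 0.18 (SE, adjusted p = 0.00229). Sult5a1, a sulfotransferase, rose by 1.58 ± 0.17 (SE, adjusted p = 0.0033) and by 2.09 on its other probe. The Ugt1a enzymes come from 1 locus with shared last exons, so their probes may be partly common. Ugt1a5 read 8.71, 9.06 and 9.03 on the T3 arrays, against 6.31, 5.99 and 6.49 on the euthyroid arrays, one of the 12 greatest rises among genes detected on all 6 arrays (2.67 ± 0.17, SE, adjusted p = 0.000621), and Ugt1a2 gave 2.20 ± 0.21 (SE, adjusted p = 0.00218). The 4 falls were those of the glutathione transferases Gstm1 (-1.20), Gsta1 (-1.04), Gstm6 (-0.69) and Gstm2 (-0.59), named after their values were seen and members of families of close copies. Their count was 1 without T3 replicate 3 or euthyroid replicate 1, and 2 with euthyroid replicate 2 or 3 left out.

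Transporters also moved both ways, with 3 of 16 rising and 3 falling, 37.5% against 19.3% of all genes. Slc22a7, an uptake carrier for organic anions such as urate and cGMP, read 10.93, 10.64 and 10.79 on the T3 arrays, against 8.74, 8.70 and 8.95 on the euthyroid arrays. The groups lay far apart, with a 3.97-fold rise (1.99 ± 0.13, SE, adjusted p = 0.000621). Abcc3, which exports bile salts and glucuronides to the blood, read 9.83, 10.09 and 9.62 on the T3 arrays, against 11.73, 11.88 and 11.75 on the euthyroid arrays, a 3.83-fold fall (-1.94 ± 0.14, SE, adjusted p = 0.00101). Slc22a5, the carnitine carrier, was called at 1.05 ± 0.20 (SE, adjusted p = 0.0125) and lost without euthyroid replicate 1 (adjusted p = 0.0507). The count of falls was 1 without euthyroid replicate 1 or 3.

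Among the lists with at least 10 tested members, cholesterol synthesis had the highest share of rises. In it 13 of 18 tested genes were higher with T3 and 0 lower, against 8.18% of all genes higher. The female-biased list was close behind, with 7 of 10. With median scaling the order turned, with 12 of 18 against 8 of 10. The median was 0.90, and between 11 and 13 rose with any 1 array left out. Along the pathway the calls began at the isoprenoid steps, with Idi1, the isopentenyl diphosphate isomerase, at 1.24 and Pmvk, the phosphomevalonate kinase, at 0.97. Sqle, the squalene epoxidase, read 11.77, 11.67 and 12.20 on the T3 arrays, against 10.13, 10.53 and 10.30 on the euthyroid arrays. It rose 2.95-fold (1.56 ± 0.17, SE, adjusted p = 0.00339), and its other probe gave 1.95. Cyp51, which takes the first methyl group from lanosterol, read 11.30, 11.36 and 11.58 on the T3 arrays, against 9.41, 9.97 and 9.81 on the euthyroid arrays, a rise of 1.68 ± 0.17 (SE, adjusted p = 0.00229). The later sterol steps followed in the same direction, with Msmo1 at 1.09 (adjusted p = 0.00606), Tm7sf2 at 0.78 (adjusted p = 0.00615) and Dhcr7 at 1.04. The members that were not called include the regulators Srebf2 (0.18), the factor that switches the pathway on, and Insig1 (0.21), which holds it back.

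Of 23 tested genes of fatty acid and triglyceride synthesis 9 rose and 2 fell (median 0.34). The count of rises was 3 without euthyroid replicate 1, 4 without euthyroid replicate 2, and 5 with T3 replicate 3 or euthyroid replicate 3 left out. Pnpla3, a lipase of lipid droplets, read 8.58, 8.54 and 9.05 on the T3 arrays, against 5.91, 7.22 and 7.27 on the euthyroid arrays, and rose by 1.92 ± 0.36 (SE, adjusted p = 0.012). Lpin1, a phosphatidate phosphatase, was called at 1.04 ± 0.21 (SE, adjusted p = 0.0146). Its call was lost without euthyroid replicate 1 (adjusted p = 0.0559) and with all 9 arrays in 1 fit (adjusted p = 0.0539). Lpin2 had 1 probe at 0.95 ± 0.20 (SE, adjusted p = 0.0179) and another at -0.43. The Lpin2 call was lost without euthyroid replicate 1 (adjusted p = 0.0542) and with the mean of its probes (adjusted p = 0.208). The enzymes of the chain itself did not pass: Fasn, the fatty acid synthase, differed by 0.51, Acly, the citrate lyase, by 0.03, and Scd1, the stearoyl-CoA desaturase, by 0.02. The 2 falls were Srebf1, the gene of the factor through which insulin raises these enzymes (-1.04, adjusted p = 0.0326), and Dgat1, a triglyceride synthase (-0.49, adjusted p = 0.0261), both named after their values were seen. Their count was 0 without T3 replicate 3 or euthyroid replicate 1 or 3, and 1 with T3 replicate 1 or 2 or euthyroid replicate 2 left out.

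In bile acid synthesis and transport 6 of 19 tested genes rose and 1, Abcc3, fell; the count of rises was 3 without euthyroid replicate 1, 2 or 3, and 3 with median scaling. Abcb11, the canalicular bile salt export pump, read 12.77, 13.11 and 12.79 on the T3 arrays, against 12.03, 12.04 and 12.03 on the euthyroid arrays. Its euthyroid values were nearly equal, and all T3 values were higher (0.85 ± 0.13, SE, adjusted p = 0.00599). Abcb4, the canalicular phospholipid flippase, gave 0.77 ± 0.12 (SE, adjusted p = 0.00649). Slc51b, a subunit of the basolateral exporter, passed detection on 1 of the 3 euthyroid arrays and gave 2.68 ± 0.30 (SE, adjusted p = 0.00339). Akr1d1, the reductase that makes the 5-beta ring of bile acids, was listed under steroid hormone metabolism and is not 1 of the 6. It was detected on all 3 T3 arrays and on 0 euthyroid arrays. It read 6.65, 6.51 and 6.41 on the T3 arrays, against 4.95, 5.19 and 5.22 on the euthyroid arrays and was at least 2.17-fold higher with T3 (adjusted p = 0.00174). Cyp7a1, the rate-limiting enzyme of bile acid synthesis, was not called (-0.23), nor was Cyp8b1 (-0.33). Of 19 tested genes of apolipoproteins and lipoprotein handling 4 rose and 0 fell, 21.1% against 19.3% of all genes. Angptl4, which inhibits lipoprotein lipase, rose by 1.06 ± 0.20 (SE, adjusted p = 0.0127), and Mttp, which loads lipid on apolipoprotein B, by 0.80 ± 0.15 (SE, adjusted p = 0.0113), the second lost with median scaling. Apob was called at 0.67 ± 0.17 (SE, adjusted p = 0.0293), and lost without T3 replicate 1 or 2 or euthyroid replicate 1 or 3 (adjusted p = 0.0708 to 0.0921) and with median scaling, and the apolipoprotein genes Apoa1 (-0.02), Apoe (-0.17) and Apoc3 (-0.02) were not called. The count of the 4 rises was 2 without euthyroid replicate 1 or 3, and 1 with median scaling.

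**Figure D3:**
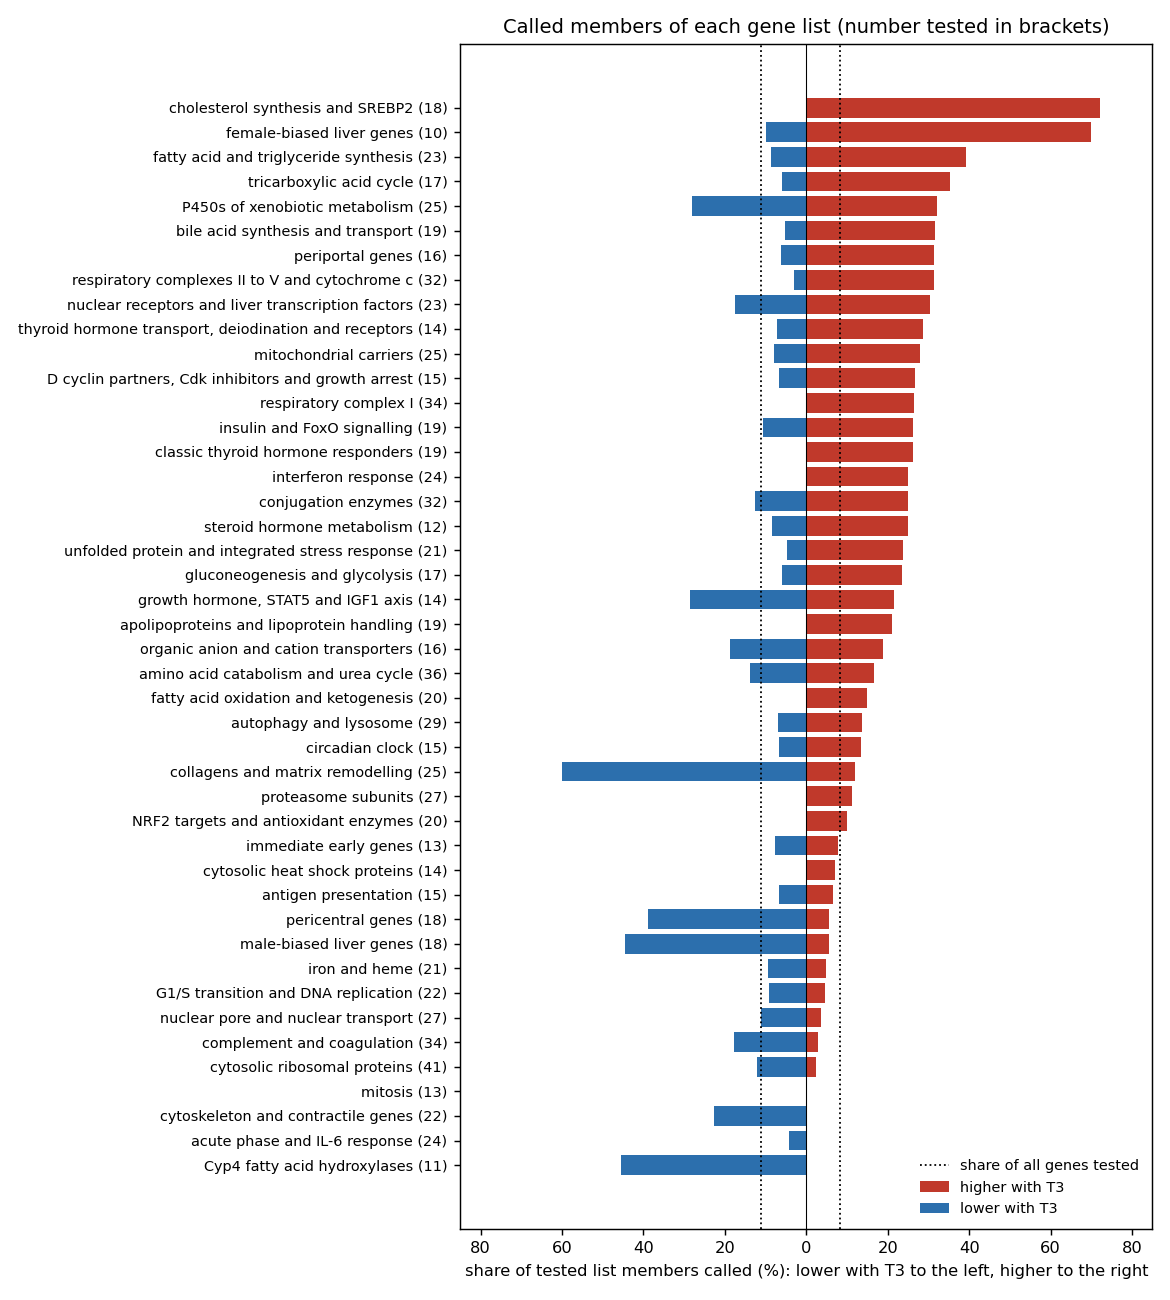
Share of the tested members of each gene list (number tested in brackets) called higher with T3 (red, to the right) or lower (blue, to the left), for lists with at least 10 tested members; dotted lines mark the shares of all 9776 genes, 8.18% higher and 11.1% lower. Cholesterol synthesis has 13 of 18 members to the right, and collagens and matrix remodelling 15 of 25 to the left.

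Among genes of mitochondrial respiration the calls were mostly on the higher side, and most members were not called. Of 34 tested complex I genes 9 rose and 0 fell (median 0.22), against 8.18% of all genes higher. Of 32 genes of complexes II to V and cytochrome c 10 rose and 1 fell (median 0.32). The tricarboxylic acid cycle had 6 rises and 1 fall of 17 (median 0.28), and the mitochondrial carriers 7 and 2 of 25 (median 0.16). These counts depend on the processing. With median scaling 0 complex I genes, 0 of complexes II to V, 2 of the cycle and 0 carriers were called higher, although the list medians stayed above 0, at 0.20, 0.27, 0.28 and 0.12. Leaving out arrays gave complex I rises of 3 without T3 replicate 3 or euthyroid replicate 1, 2 or 3, 4 without T3 replicate 2, and 5 with T3 replicate 1 left out. For complexes II to V the count was 1 without euthyroid replicate 2, 2 without T3 replicate 3 or euthyroid replicate 1 or 3, and 6 with T3 replicate 1 or 2 left out. For the cycle it was 1 without euthyroid replicate 1 or 2, and 2 with T3 replicate 3 or euthyroid replicate 3 left out, and for the carriers 0 without euthyroid replicate 2, 1 without euthyroid replicate 1, 2 without T3 replicate 3 or euthyroid replicate 3, and 3 with T3 replicate 2 left out.

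Among the single genes, Ndufs4, an accessory subunit of complex I, read 12.60, 12.55 and 12.64 on the T3 arrays, against 11.92, 11.92 and 12.06 on the euthyroid arrays, a rise of 0.63 ± 0.10 (SE, adjusted p = 0.00801) that its 3 other probes shared in sign. Ndufa5 gave 0.66 (adjusted p = 0.00976), Ndufc2 0.60 (adjusted p = 0.0103) and Sdhd, a membrane anchor of complex II, 0.65 (adjusted p = 0.00754). All 4 calls were lost with median scaling. Mdh1, the cytosolic malate dehydrogenase of the malate shuttle, read 10.67, 10.92 and 10.62 on the T3 arrays, against 9.86, 9.69 and 9.95 on the euthyroid arrays, a rise of 0.90 ± 0.13 (SE, adjusted p = 0.00579) that kept its call in each of the 16 alternatives and was matched by its other probes (0.70 and 0.74). Cycs, cytochrome c, was called at 0.53 ± 0.11 (SE, adjusted p = 0.0173), and lost without euthyroid replicate 1 or 2 (adjusted p = 0.0598 to 0.0628) and with median scaling. Atp5a1, the alpha subunit of ATP synthase, had 1 probe at 0.69 and another at -0.72, and its call was lost without T3 replicate 3 or euthyroid replicate 1, 2 or 3 (adjusted p = 0.0525 to 0.0718), with median scaling and with the mean of its probes. Slc25a37, the mitoferrin that brings iron into mitochondria, was a fall among the carriers (-0.85 ± 0.17, SE, adjusted p = 0.015), with 0.39 on its other probe. This call was lost without euthyroid replicate 2 (adjusted p = 0.0515) and with the mean of its probes (adjusted p = 0.388). In fatty acid oxidation and ketogenesis 3 of 20 genes rose and 0 fell, 15% against 19.3% of all genes. Pdk4, the kinase that inactivates the pyruvate dehydrogenase complex, read 7.57, 7.13 and 7.52 on the T3 arrays, against 6.25, 5.95 and 5.97 on the euthyroid arrays and rose by 1.35 ± 0.16 (SE, adjusted p = 0.0037), and Ppara, the fatty acid receptor, by 0.61 ± 0.11 (SE, adjusted p = 0.0118), the second lost with median scaling and with all 9 arrays in 1 fit. Acadm (0.00), Hadha (-0.11) and Acadvl (0.07), enzymes of the beta-oxidation spiral, were not called.

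Many genes expressed around the central vein depend on Wnt signalling. Of 18 tested 7 fell and 1 rose, 44.4% against 19.3% of all genes, with a median of -0.53. The count of falls was 4 without euthyroid replicate 1 or 2. The rise was lost without T3 replicate 3 or euthyroid replicate 1, 2 or 3, and with median scaling. Oat, ornithine aminotransferase, read 12.89, 12.08 and 12.69 on the T3 arrays, against 14.32, 14.21 and 14.47 on the euthyroid arrays. It fell 3.43-fold (-1.78 ± 0.21, SE, adjusted p = 0.00383). Axin2, a negative regulator and target of Wnt signalling, read 7.18, 6.82 and 6.88 on the T3 arrays, against 7.60, 8.10 and 7.84 on the euthyroid arrays, a difference of -0.88 ± 0.16 (SE, adjusted p = 0.0118). Slc1a2, a glutamate transporter, gave -0.99 ± 0.18 (SE, adjusted p = 0.0118). Glul, the glutamine synthetase confined to the innermost pericentral hepatocytes, was not called (0.06), nor was Cyp2e1 (-0.08).

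Of 16 tested periportal genes 5 rose and 1 fell (median -0.01); the count of rises was 2 without euthyroid replicate 2 or 3, and 3 with euthyroid replicate 1 left out, and 2 with median scaling. Ctsc, the lysosomal dipeptidase cathepsin C, read 12.94, 13.25 and 12.82 on the T3 arrays, against 11.67, 12.02 and 11.94 on the euthyroid arrays, a rise of 1.13 ± 0.15 (SE, adjusted p = 0.00529). Cps1, the first enzyme of the urea cycle, gave 0.57 ± 0.11 (SE, adjusted p = 0.0147), and was lost without euthyroid replicate 2 or 3 (adjusted p = 0.053 to 0.0567) and with median scaling. Cyp2f2, a P450 of the periportal zone, gave 0.58 ± 0.13 (SE, adjusted p = 0.0198), and was lost without euthyroid replicate 1, 2 or 3 (adjusted p = 0.0578 to 0.066) and with median scaling. In amino acid catabolism and the urea cycle 6 of 36 genes rose and 5 fell (median -0.02). Asl, argininosuccinate lyase, read 9.95, 9.86 and 9.47 on the T3 arrays, against 8.80, 8.42 and 8.97 on the euthyroid arrays, a rise of 1.03 ± 0.19 (SE, adjusted p = 0.0114), and Cth, cystathionine gamma-lyase, rose by 1.01 ± 0.17 (SE, adjusted p = 0.00886). Hpd, which degrades tyrosine, gave -0.77 ± 0.13 (SE, adjusted p = 0.00932) and Agxt, which clears glyoxylate, -0.74 ± 0.12 (SE, adjusted p = 0.00735), both lower. The rises numbered 2 without euthyroid replicate 2 or 3, and the falls 3 without euthyroid replicate 1. With median scaling 2 rose and 2 fell.

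Psat1, the aminotransferase of serine synthesis, was among the 12 greatest rises, at 8.53, 9.68 and 8.55 on the T3 arrays, against 5.85, 7.57 and 6.64 on the euthyroid arrays. It differed by 2.23 ± 0.46 (SE, adjusted p = 0.0169), lost without euthyroid replicate 3 (adjusted p = 0.0527). Gys2, the liver glycogen synthase, rose by 0.77 ± 0.12 (SE, adjusted p = 0.00636). Of 17 genes of gluconeogenesis and glycolysis 4 were called higher and 1 lower, the lower call lost with median scaling or with any 1 array but T3 replicate 1 left out, and G6pc, the glucose-6-phosphatase, was not called (-0.37).

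Of 23 tested nuclear receptors and liver transcription factors 7 rose and 4 fell. Esr1, the estrogen receptor alpha, read 9.36, 10.02 and 9.70 on the T3 arrays, against 8.43, 8.63 and 8.25 on the euthyroid arrays, with every T3 array higher (1.25 ± 0.19, SE, adjusted p = 0.00612). Cebpb, a leucine zipper factor of gluconeogenesis and inflammation, rose by 0.85 ± 0.11 (SE, adjusted p = 0.00515), and Rora, an orphan receptor that acts on the clock, by 0.80 ± 0.10 (SE, adjusted p = 0.00453). Nr1i3, the constitutive androstane receptor that governs many P450s, read 10.56, 10.60 and 10.75 on the T3 arrays, against 11.49, 11.66 and 11.44 on the euthyroid arrays, a fall on all 3 of its probes (-0.89 ± 0.12, SE, adjusted p = 0.00448; -0.97 and -0.63 on the others). The count of falls was 1 without euthyroid replicate 1 or 3, and 2 with T3 replicate 1 or 3 or euthyroid replicate 2 left out, and that of rises 4 without T3 replicate 1 or 3 or euthyroid replicate 1, 2 or 3. Foxo1, the forkhead factor that insulin keeps out of the nucleus, was called on its brighter probe (0.78 ± 0.16, SE, adjusted p = 0.0162) and gave 0.05 on the other. The Foxo1 call was lost without euthyroid replicate 1 or 3 (adjusted p = 0.0534 to 0.0593) and with median scaling. It was also lost with the mean of its probes (adjusted p = 0.0515). In insulin and FoxO signalling 5 of 19 rose and 2 fell, the 2 being Grb10, an adaptor that damps the insulin receptor (-0.90 ± 0.14, SE, adjusted p = 0.00709), and Pik3r1, the regulatory subunit of PI3-kinase (-0.74 ± 0.12, SE, adjusted p = 0.00787). The rises numbered 1 without euthyroid replicate 3, 2 without euthyroid replicate 1, and 3 with T3 replicate 2 or 3 or euthyroid replicate 2 left out. Of the clock genes 2 of 15 rose and 1 fell, 20% against 19.3% of all genes. Rora was among the rises. Nr1d1 was called at -0.59 ± 0.14 (SE, adjusted p = 0.0268). That call was lost without T3 replicate 1 or 2 or euthyroid replicate 1 or 2 (adjusted p = 0.0544 to 0.0797) and with median scaling. The rises numbered 1 without T3 replicate 1 or 3 or euthyroid replicate 1, and 1 with median scaling.

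Genes of the extracellular matrix fell in most of the members tested. Of 25 tested 15 were lower with T3 and 3 higher, where 11.1% of all genes were lower, with a median of -0.69. The count of falls was 9 without euthyroid replicate 2 or 3. Col1a1, a chain of type I collagen, passed detection on 1 of the 3 T3 arrays and on all euthyroid arrays; it read 5.12, 5.63 and 4.83 on the T3 arrays, against 7.55, 7.52 and 7.71 on the euthyroid arrays and differed by -2.40 ± 0.20 (SE, adjusted p = 0.0014). Col3a1, the type III chain, read 7.32, 7.94 and 7.29 on the T3 arrays, against 9.03, 8.70 and 8.69 on the euthyroid arrays, without overlap (-1.29 ± 0.20, SE, adjusted p = 0.0068). Col5a1 gave -1.29 ± 0.13 (SE, adjusted p = 0.00229), and Loxl1, which crosslinks elastin, -1.07 ± 0.13 (SE, adjusted p = 0.00383). Col15a1, a basement membrane collagen, ran the other way at 7.57, 7.86 and 7.38 on the T3 arrays, against 6.23, 6.40 and 6.05 on the euthyroid arrays, a rise of 1.38 ± 0.16 (SE, adjusted p = 0.00366). The other rises were Mgp, the matrix Gla protein (0.98), and Fn1, the fibronectin gene that hepatocytes also express (0.68).

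Acta2, the smooth muscle actin of activated stellate cells, read 8.63, 7.69 and 7.10 on the T3 arrays, against 9.66, 9.81 and 10.28 on the euthyroid arrays. It fell 4.31-fold (-2.11 ± 0.37, SE, adjusted p = 0.00979), with -1.68 and -0.34 on its other probes. In the contractile and cytoskeletal list 5 of 22 genes fell and 0 rose, 22.7% against 19.3% of all genes called. The count of falls was 3 without euthyroid replicate 1, 2 or 3. Among them were Anxa2, a calcium-dependent membrane binding protein (-1.01 ± 0.13, SE, adjusted p = 0.00429), and Tpm2, a tropomyosin (-0.97 ± 0.19, SE, adjusted p = 0.0133). Of 12 tested stellate and fibroblast markers 5 fell and 1 rose, 50% against 19.3% of all genes. The count of falls was 3 without euthyroid replicate 1. The rise was lost without T3 replicate 1, 2 or 3 or euthyroid replicate 2 or 3, and with median scaling. Reln, the reelin gene, which stellate cells express, was called lower (-0.64 ± 0.13, SE, adjusted p = 0.0144) and lost without euthyroid replicate 1 (adjusted p = 0.0548). Lrat, which stores vitamin A, differed by 0.20, Des, the desmin gene, by -0.09 and Dcn, the decorin gene, by -0.06, none of them called. The summed linear signal of the 12 markers was 18850 to 20280 on the T3 arrays, against 19330 to 23330 on the euthyroid arrays. In bulk tissue fewer cells of a type and less RNA per cell cannot be told apart.

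Markers of other cell types were read as well, and their part in the results above was not tested. Of 11 tested Kupffer cell and macrophage markers 2 rose and 0 fell, 18.2% against 19.3% of all genes. Their summed signal was 11970 to 13420 on the T3 arrays, against 10300 to 10740 on the euthyroid arrays, without overlap. Lyz2, lysozyme M, gave 0.71 ± 0.13 (SE, adjusted p = 0.0117), lost with median scaling, and Marco, a scavenger receptor, 0.73 ± 0.20 (SE, adjusted p = 0.0397), lost without T3 replicate 1, 2 or 3 or euthyroid replicate 1 or 3 (adjusted p = 0.0519 to 0.109) and with median scaling. Of the 11 markers 10 had a difference above 0, with a median of 0.29 (0.24 with median scaling), and Clec4f, which defines Kupffer cells, was the 1 below 0 (-0.08, not called). The count of calls was 1 without T3 replicate 1, 2 or 3 or euthyroid replicate 1 or 3, and 0 with median scaling. Of 5 tested erythroid markers 3 fell and 2 were not called, and 1 of the 5 had a difference above 0 (0.43). The count of falls was 2 without T3 replicate 1 or 2 or euthyroid replicate 2 or 3. The summed signal of the 5 was 19370 to 20980 on the T3 arrays, against 22020 to 28130 on the euthyroid arrays. Alas2, the erythroid enzyme that begins heme synthesis, read 11.01, 10.28 and 10.55 on the T3 arrays, against 12.08, 11.94 and 12.13 on the euthyroid arrays, a difference of -1.44 ± 0.19 (SE, adjusted p = 0.0046), and Klf1, the erythroid transcription factor, fell 2.01-fold (adjusted p = 0.0116). Of 11 sinusoidal endothelial markers 1 fell, Stab1 (-0.50 ± 0.11, SE, adjusted p = 0.0222; lost without euthyroid replicate 1, 2 or 3 (adjusted p = 0.0538 to 0.0766) and with median scaling), and their sum was 11950 to 13200 on the T3 arrays, against 13030 to 13770 on the euthyroid arrays. Of the 4 tested neutrophil and monocyte markers and the 3 lymphocyte markers 0 were called. The neutrophil sum was 663 to 963 on the T3 arrays, against 642 to 1116 on the euthyroid arrays, and the lymphocyte sum 180 to 296 on the T3 arrays, against 237 to 312 on the euthyroid arrays. Of 2 cholangiocyte markers Sox9 was called lower (-0.54, adjusted p = 0.0364) and was lost without any 1 of the 6 arrays, with a sum of 351 to 391 on the T3 arrays, against 469 to 623 on the euthyroid arrays; Krt19, Krt7 and Epcam were not detected on enough arrays. The 1 adipocyte marker tested was not called, and Adipoq, Plin1 and Fabp4 were not detected on enough arrays. Of 3 tested markers of exocrine pancreas 2 rose, and 1 with median scaling or with any 1 array but T3 replicate 2 left out. Their summed signal was 17560 to 18710 on the T3 arrays, against 11600 to 13960 on the euthyroid arrays. This linear sum leans on Amy2a5, which averaged 13.86 with T3 and 13.41 in euthyroid liver. Cela2a averaged 8.62 and 6.94. Cela2a, an elastase, read 8.49, 8.69 and 8.68 on the T3 arrays, against 7.26, 6.71 and 6.86 on the euthyroid arrays, a rise of 1.67 ± 0.16 (SE, adjusted p = 0.00218). Amy2a5, an amylase whose probe may read the near-identical amylase genes, including the one of liver, gave 0.46 (adjusted p = 0.0355), Cela1 was not called (0.46, adjusted p = 0.376), and the defining genes Cpa1, Ctrb1, Prss2, Cel and Cela3b were not detected on enough arrays to be tested.

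**Figure D4:**
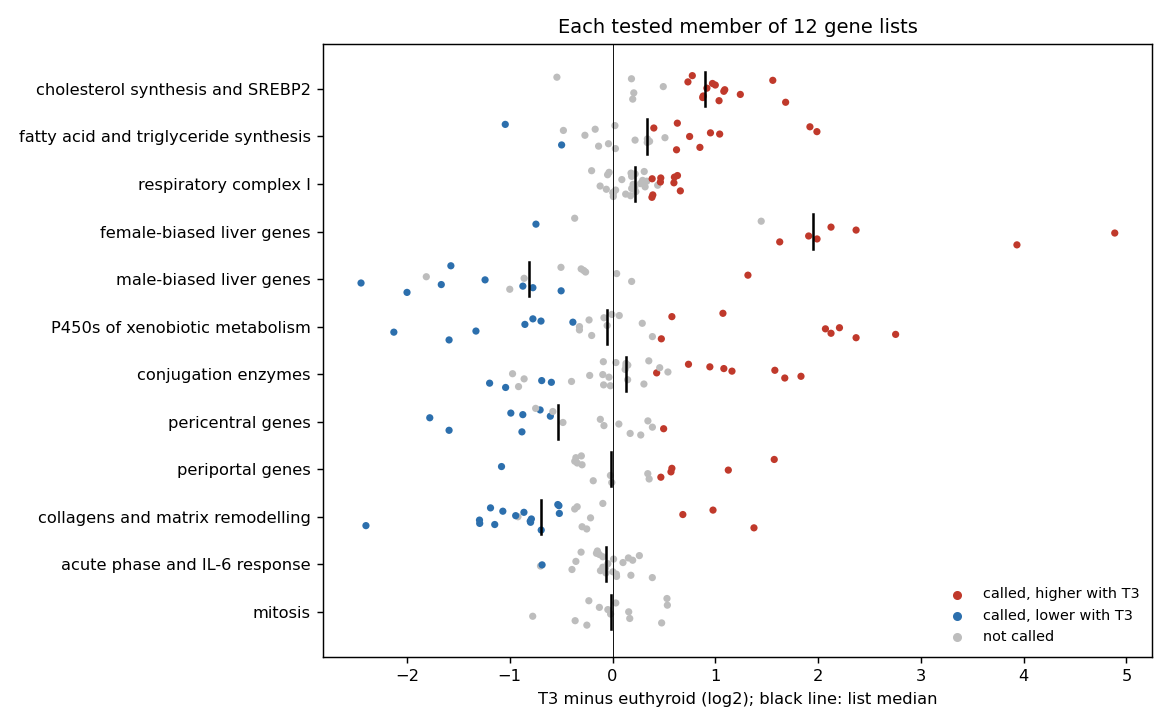
Difference between T3 and euthyroid liver (log2, horizontal axis) of each tested member of 12 gene lists, with the list median as a black line. Red and blue points passed the test. Of 25 matrix genes 15 lie to the left in blue. The mitosis and acute phase lists hold 0 of 13 and 1 of 24 called members, where 19.3% of all genes were called.

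The acute phase response had few calls: of 24 tested genes 0 rose and 1 fell, 4.17% against 19.3% of all genes. The fall was Itih3, a plasma protein that binds hyaluronan (-0.69 ± 0.12, SE, adjusted p = 0.00912). Saa1 (0.15), a close copy of Saa2, and Crp (0.04) were not called. Of 34 complement and coagulation genes 6 fell and 1 rose, 20.6% against 19.3% of all genes. Beside C6, C8a, another component of the attack complex, fell (-0.61 ± 0.11, SE, adjusted p = 0.0106), and Mbl2, a mannose-binding lectin, rose (0.79 ± 0.16, SE, adjusted p = 0.0149). The count of falls was 2 without euthyroid replicate 1, and 3 with euthyroid replicate 2 left out. In the interferon response 6 of 24 rose and 0 fell (median 0.25); the count was 2 without euthyroid replicate 1 or 2, and 3 with T3 replicate 3 or euthyroid replicate 3 left out. Ifih1, a sensor of viral RNA, was detected on all T3 arrays and on 0 euthyroid arrays, and was at least 2.1-fold higher (5.99, 6.97 and 6.48 on the T3 arrays, against 5.35, 4.79 and 4.92 on the euthyroid arrays; adjusted p = 0.0105). Gbp3, a guanylate-binding protein, was called at 1.41 ± 0.29 (SE, adjusted p = 0.0162), and lost without euthyroid replicate 1 or 2 (adjusted p = 0.0529 to 0.0573). In antigen presentation 1 of 15 genes rose and 1 fell, 13.3% against 19.3% of all genes. The rise was Tapbp, the tapasin gene (0.97 ± 0.14, SE, adjusted p = 0.00538). The fall was H2-DMb1, a class II peptide exchanger (-0.65 ± 0.11, SE, adjusted p = 0.00804), and 4 fell without T3 replicate 2.

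Among 21 tested genes of the unfolded protein response and the integrated stress response 5 rose and 1 fell, 28.6% against 19.3% of all genes. The rises numbered 2 without T3 replicate 2 or 3 or euthyroid replicate 1, and 3 with euthyroid replicate 2 left out. Calr, calreticulin, read 8.51, 8.80 and 8.64 on the T3 arrays, against 7.72, 7.71 and 7.61 on the euthyroid arrays, a rise of 0.98 ± 0.12 (SE, adjusted p = 0.00383). Hspa5, the chaperone BiP, read 8.14, 8.27 and 8.55 on the T3 arrays, against 7.42, 7.41 and 7.52 on the euthyroid arrays, a rise of 0.87 ± 0.13 (SE, adjusted p = 0.0066). Xbp1, the factor that enlarges the secretory pathway, was called lower (-0.56, adjusted p = 0.0123; not called with all 9 arrays in 1 fit), and Ddit3, the CHOP factor of severe stress, was not called (0.04). Of 27 proteasome subunits 3 rose and 0 fell, 11.1% against 19.3% of all genes. Psmd6 led them (1.11 ± 0.17, SE, adjusted p = 0.00699), with 0.37 on its other probe. Psmc6, a proteasome ATPase, was detected on all T3 arrays and on 0 euthyroid arrays, and was at least 1.56-fold higher (adjusted p = 0.00908). Of 41 cytosolic ribosomal protein genes 5 were called lower and 1 higher, where 11.1% of all genes were lower and 8.18% higher. The count of lower calls was 0 to 2 with any 1 array left out and 0 with median scaling, and the higher call was lost in each of these settings. Among 14 genes listed as cytosolic heat shock proteins 1 was called, Hspe1, in fact a mitochondrial co-chaperonin (0.46, adjusted p = 0.0308), and it was lost without T3 replicate 2 or 3 or euthyroid replicate 1, 2 or 3 (adjusted p = 0.0646 to 0.0874) and with median scaling. Of 20 NRF2 targets and antioxidant enzymes 2 were called higher and 0 lower, 10% against 19.3% of all genes. The count of these higher calls was 0 without euthyroid replicate 1 or 3, and 1 with euthyroid replicate 2 left out, and 0 with median scaling. Of 29 genes of autophagy and lysosomes 4 were called higher and 2 lower, 20.7% against 19.3% of all genes. The higher calls numbered 0 without T3 replicate 3 or euthyroid replicate 1, 2 or 3, 1 without T3 replicate 2, and 2 with T3 replicate 1 left out, and median scaling left 0 higher and 1 lower.

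Of 13 tested mitosis genes 0 were called, where 19.3% of all genes were. Of 22 genes of the G1/S transition and DNA replication 1 was called higher and 2 lower, 13.6% against 19.3%. The lower calls numbered 0 without T3 replicate 1 or 3 or euthyroid replicate 1 or 3, and 1 with euthyroid replicate 2 left out, and 0 with median scaling. The higher call, Cdk4, a kinase of the G1 phase, was at 0.46 (adjusted p = 0.0286), with -0.45 on its other probe, and was lost without T3 replicate 1, 2 or 3 or euthyroid replicate 1 or 2 (adjusted p = 0.0525 to 0.0951) and with median scaling. Ccnd1, the cyclin D1 gene, was not called (0.41). Of 15 tested D cyclin partners, Cdk inhibitors and growth arrest genes 4 rose and 1 fell, 33.3% against 19.3% of all genes. The count of rises was 1 without T3 replicate 2 or euthyroid replicate 1, 2 or 3. Cdkn1c was the fall, and Ccng2 was among the rises. Cdkn1c, the imprinted Cdk inhibitor p57, read 7.64, 7.54 and 7.21 on the T3 arrays, against 8.78, 8.48 and 8.51 on the euthyroid arrays, a difference of -1.13 ± 0.15 (SE, adjusted p = 0.00513). Ccng2, a cyclin linked to arrest, read 8.67, 8.86 and 8.56 on the T3 arrays, against 7.42, 7.98 and 7.38 on the euthyroid arrays, a rise of 1.10 ± 0.18 (SE, adjusted p = 0.00842).

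Outside the lists, the greatest rises among genes detected on all 6 arrays included Crybb3, a lens crystallin, at 9.15, 9.31 and 9.69 on the T3 arrays, against 6.96, 6.65 and 6.18 on the euthyroid arrays (2.79 ± 0.22, SE, adjusted p = 0.00129), and Nt5e, the ecto-enzyme that makes adenosine from AMP, at 1.98 ± 0.21 (SE, adjusted p = 0.00324) with 1.79 on its other probe. The greatest falls included Lpgat1, an acyltransferase of phosphatidylglycerol, whose 2 probes were opposed (-2.20 ± 0.15, SE, adjusted p = 0.000783 and 0.77), and the pseudogene Pisd-ps3 (-2.18 ± 0.28, SE, adjusted p = 0.00438; other probe -0.48). Serpina4-ps1, also a pseudogene, differed by -2.12 ± 0.53 (SE, adjusted p = 0.0303), lost without euthyroid replicate 1, 2 or 3 (adjusted p = 0.0705 to 0.0874). Gnat1, a transducin known from rod photoreceptors, read 8.23, 7.14 and 8.11 on the T3 arrays, against 10.01, 9.58 and 9.56 on the euthyroid arrays (-1.89 ± 0.29, SE, adjusted p = 0.00661). Cebpe, a leucine zipper factor of granulocytes, read 6.44, 6.24 and 5.67 on the T3 arrays, against 8.11, 7.97 and 7.69 on the euthyroid arrays (-1.80 ± 0.21, SE, adjusted p = 0.00383; other probe -2.09), and Dsg1c, a desmosomal cadherin, gave -1.80 ± 0.19 (SE, adjusted p = 0.00284). Ipo7, a nuclear import receptor, read 6.69, 6.40 and 6.91 on the T3 arrays, against 7.80, 8.33 and 8.14 on the euthyroid arrays, a difference of -1.43 ± 0.18 (SE, adjusted p = 0.00439). It was among 27 nuclear pore and transport genes of which 3 were called lower and 1 higher, 14.8% against 19.3% of all genes. Without T3 replicate 3 or any 1 of the euthyroid arrays, or with median scaling, 1 was lower, and the higher call was lost without any 1 array but T3 replicate 3 and with median scaling.

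Some genes were detected on all 3 arrays of 1 group and on 0 of the other, 21 genes in T3 liver (18 called) and 90 in euthyroid liver (57 called). For these only a lower bound of the fold is given: the bright group's mean against the mean, over the other group's arrays, of the lowest signal among detected probes or the probe's own signal, whichever is higher. Wfdc16, a small whey acidic protein, read 7.01, 7.86 and 7.69 on the T3 arrays, against 4.75, 4.71 and 4.69 on the euthyroid arrays and was at least 4.32-fold higher with T3 (adjusted p = 0.00105). Fndc5, the precursor of irisin, read 7.42, 7.31 and 7.61 on the T3 arrays, against 5.02, 5.29 and 5.37 on the euthyroid arrays and was at least 4.12-fold higher (adjusted p = 0.000621); its other probes gave 2.02 and 2.06. Cetn2, a centrin, was at least 2.95-fold and Sspo, the subcommissural organ spondin, at least 2.6-fold higher. Fabp12, a fatty acid binding protein, was at least 2.42-fold higher, a call lost without euthyroid replicate 3 (adjusted p = 0.0517). On the lower side Stxbp3, which binds syntaxins in vesicle fusion, read 5.40, 5.35 and 4.76 on the T3 arrays, against 6.39, 6.56 and 6.51 on the euthyroid arrays and was at least 2.02-fold lower with T3 (adjusted p = 0.00529). Gpnmb, a membrane glycoprotein known from macrophages, was at least 1.72-fold lower (adjusted p = 0.00521), and Tiam2, an exchange factor for Rac, at least 1.66-fold. Mfsd9 and Wdr90 were both at least 1.59-fold lower. Capn6, a calpain, was at least 1.78-fold lower, lost without T3 replicate 2 or 3 or euthyroid replicate 2 or 3 (adjusted p = 0.0545 to 0.0673).

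Several probes of 1 gene did not always speak alike. Of 3453 genes with several tested probes 36 had probes called in opposite directions. Of the 693 called genes with several probes 533 had all probes on the same side and 340 had another probe called in the same direction. Ola1, an ATPase of the Obg family, gave 0.82 on 1 probe and -1.06 on the other, and with the mean of its probes its call was lost. Taok3, a Ste20-type kinase, ranged over its probes from -0.94 to 0.77, Slc35a3, the Golgi carrier of UDP-N-acetylglucosamine, from -0.98 to 1.02, and Cltc, the clathrin heavy chain, from -1.02 to 0.99. Of the 2561 tested probes that pair with no single symbol, 580 (22.6%) were called, against 21.1% of all 17185 probes.

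**Figure D5:**
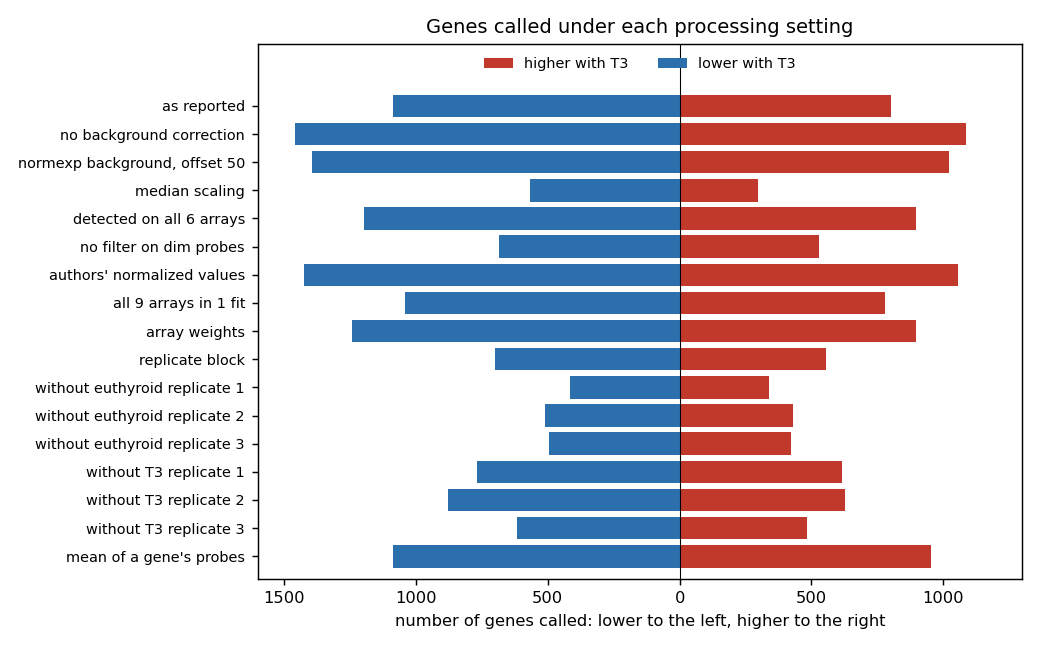
Number of genes called higher (red, to the right) and lower (blue, to the left) with T3 under each processing setting, with the reported setting at the top. The reported 800 and 1088 stand against 297 and 566 with median scaling, and 338 and 415 without euthyroid replicate 1.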

How the data were processed

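The deposited signals are linear probe intensities of Illumina bead arrays, 1 column per array, each with a detection p-value, per the file headers. A second deposited table holds intensities that the authors normalized between arrays; its columns, once sorted, lie within 0.0693% of the mean sorted signals. Partek 6.6 is named in the submitters' processing notes, and its step is not given in the sources used here. From the unnormalized signals, limma 3.58.1 in R 4.3.3 corrected the background with neqc (offset 16), which takes the level of the negative controls from the detection p-values (936 controls implied), normalized 6 arrays by quantiles and took log2 with no further pseudocount. The deposited tables hold linear values, and log2 was taken here. Probes with a detection p under 0.05 on at least 3 arrays were fitted with 2 group means (lmFit, eBayes, two-sided), with Benjamini-Hochberg adjustment over 17185 probes and a threshold of 0.05.

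Of the probes, 34885 pair with 1 gene symbol, 18 with several and 10378 with none, in GEO's platform annotation. Gene positions and promoter windows are from RefSeq (GRCm38.p6). The members and gene lists were chosen with earlier results of these data known. Genes were named by rule: the 12 greatest rises and falls without overlap among genes detected on all 6 arrays; up to 6 genes in each direction detected in 1 group alone, by the bound of their fold; up to 4 called members of each list by p; Dio1, Thrsp, Me1, Klf9, Hr, Foxo1, Thra, Thrb and Igf1; and up to 4 genes whose probes were called in opposite directions. Predicted genes were passed over. Genes given as not called, and Idi1, Pmvk, Dhcr7, Mgp, Fn1, Clec4f and the genes of the closing observations, were chosen after their values were seen. With 3 arrays per group, simulated data held 17185 probes, with 67 changed 1.5-fold, 67 changed 2-fold and 66 changed 4-fold. Of these changes 20.9%, 61.2% and 97% were given back, and 0.833% of calls were false. In the data 3624 probes were called, a far larger share, and the Benjamini-Hochberg cut-off depends on that share. The simulated figures therefore do not measure the power or the share of false calls here. Same-numbered arrays did not deviate together (correlations 0.00, -0.02 and -0.01). The files name no slide or scan, so no batch was tested. Alternatives changed the background step, normalization, filter, values, arrays in the fit, weights, block, probe rule and size of change, and left out each array in turn.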

Additional observations from a re-analysis of the deposited data

How the results depend on the processing

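Median scaling in place of quantiles lowered the calls to 1784 probes (714 higher, 1070 lower), 863 genes (297 higher, 566 lower) and 150 list members, against 3624 probes, 1888 genes and 264 list members as reported, and 835 of the 1888 genes were called again. With no filter on dim probes, 1231 probes were lower and 1213 genes were called (529 higher, 684 lower). The replicate number as a block, which does not pair the arrays, gave 1256 genes, 701 of them lower. Requiring a 1.5-fold difference left 2293 probes. Rises in fatty acid and triglyceride synthesis numbered 5 with no filter and 5 with all 9 arrays in 1 fit, and those of P450s 5 with detection required on all 6 arrays. Leaving out 1 array gave 1591 to 2948 probes (805 to 1412 higher, 786 to 1536 lower), 753 to 1505 genes (338 to 626 higher, 415 to 879 lower) and 129 to 217 list members; the lowest of each was without euthyroid replicate 1. It gave 3 to 9 rises in fatty acid synthesis, 3 to 7 in P450s, 4 to 7 falls in pericentral genes, 9 to 14 in collagens and 5 to 9 in male-biased genes, against 9, 8, 7, 15 and 8 as reported. When each gene was read as the average of its probes, 1874 of the 1888 genes kept their sign, and of the genes named Atp5a1 (-0.0153), Nup50 (0.00339) and Ola1 (-0.12) changed sign. Of 863 list medians under alternatives, 110 moved by more than the replicate SD and 50 changed sign, from medians of up to 0.34 in size. The counts of cholesterol synthesis rises and female-biased rises stayed within 1.5 times in the alternatives run. The slide as a block was not run, since the files give none. The number of arrays, and the 3 needed for detection, limit what dim probes can show. The cause of these shifts was not tested.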

Other observations

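Several genes outside the lists kept their call under each of the 16 alternatives; those below were picked from them after their values were seen, so they stand as values and name no theme. Plin2, the coat protein of hepatocyte lipid droplets, read 12.25, 12.29 and 12.28 on the T3 arrays, against 10.68, 11.11 and 10.73 on the euthyroid arrays, and rose by 1.43 ± 0.14 (SE, adjusted p = 0.0022). Hacl1, the peroxisomal lyase of alpha-oxidation, read 9.37, 9.02 and 9.16 on the T3 arrays, against 7.53, 7.57 and 7.66 on the euthyroid arrays, a rise of 3.03-fold (adjusted p = 0.00114). Acsl3, an acyl-CoA synthetase, rose by 1.25, Plin5, a droplet coat protein of oxidative tissues, by 0.83, Mgll, the monoglyceride lipase, by 0.81 and Insig2, which retains the SREBP complex in the endoplasmic reticulum, by 1.21. Others were lower: Vldlr, a lipoprotein receptor, differed by -1.30, Plin3, another droplet coat protein, by -0.57 and Aacs, which activates acetoacetate for lipid synthesis, by -1.36. Ppp1r3c, a glycogen-targeting subunit of protein phosphatase, read 10.99, 10.58 and 10.79 on the T3 arrays, against 12.08, 12.51 and 12.12 on the euthyroid arrays, a difference of -1.45 ± 0.16 (SE, adjusted p = 0.00353).

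Sec23a, a coat protein of the vesicles that leave the endoplasmic reticulum, read 7.17, 7.08 and 7.28 on the T3 arrays, against 5.50, 5.73 and 5.92 on the euthyroid arrays, a rise of 1.46 ± 0.14 (SE, adjusted p = 0.00215). Sec24d, a cargo adaptor of the same coat, rose by 1.01, Rab6a, a Golgi GTPase, by 1.06, and Bet1, a SNARE of this step, by 0.94. St3gal5, the sialyltransferase that makes ganglioside GM3, rose by 1.56, whereas St6gal1, which adds sialic acid to secreted glycoproteins, differed by -0.86. Egln3, an oxygen-sensing prolyl hydroxylase, read 8.51, 8.27 and 8.75 on the T3 arrays, against 9.97, 9.73 and 9.95 on the euthyroid arrays, a difference of -1.37 ± 0.15 (SE, adjusted p = 0.00324). Ndrg1, a gene known to respond to low oxygen, gave -1.20. Serpinh1, the collagen chaperone, read 9.69, 9.70 and 9.98 on the T3 arrays, against 10.77, 10.88 and 10.92 on the euthyroid arrays, a difference of -1.06 ± 0.12 (SE, adjusted p = 0.00363), and Thbs2, a matrix thrombospondin, gave -1.29.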
